A study of Mus musculus with 8 samples.

Results

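The set is the chromosome 14 odorant receptor (OR) genes outside the trio Olfr1507, Olfr1508 and Olfr1509. Members were the transcript clusters whose annotation gave a single symbol in the ranges Olfr720 to Olfr752 or Olfr1510 to Olfr1513. Symbols of pseudogene form (with -ps) were left out. This rule uses no measured value, and it gave 29 clusters of 29 genes, of 1023 OR clusters of 1015 genes and 23410 named clusters on the array. All 29 genes are placed on chromosome 14 by RefSeq. A further 4 clusters in these ranges carried several symbols (Olfr723 with Olfr724 on 2 of them, Olfr1512 with Olfr1513, and Olfr1510 with Olfr1511) and were not counted as members.

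Olfactory mucosae were dissected from 8 mice at 26 days after birth, on a mixed 129 x C57BL/6J background, and total RNA of each mouse was hybridized to a mouse gene array that gives 1 log2 value per transcript cluster. The knockout group was 4 OmpCre:Lhx2(fl/fl) mice, in which both copies of the first exons of Lhx2 are flanked by loxP sites. The control group was 4 littermates, of which control replicates 2, 3 and 4 were OmpCre:Lhx2(fl/+) and control replicate 1 was Lhx2(fl/+) without Cre, so every mouse carried at least 1 floxed allele. Cre was targeted into Omp, a gene of mature olfactory sensory neurons (OSNs), both sexes were used, and the study states that recombination in these mice was incomplete. Which litter a mouse came from is not known here, and replicate numbers only name mice within a group. The first digit of the mouse number in the sample titles, 5 (2 knockouts and 2 controls), 7 (1 and 1) or 9 (1 and 1), is called the title series below.

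Odorant receptors are G-protein-coupled receptors of the cilia of OSNs. Each mature OSN transcribes a single OR allele, and the genes lie in clusters on many chromosomes. Choice of an OR gene uses its own promoter together with distant enhancers, and Lhx2, a LIM homeodomain transcription factor, binds homeodomain sites in both. The H element, the first such enhancer to be described, lies next to Olfr1507 to Olfr1509 on chromosome 14. MOR names group mouse ORs into families by protein sequence, and they are used below to order the genes. Ligands of the individual receptors described here are not given in the sources used.

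By RefSeq gene order the 29 members fell into 4 stretches. Olfr720 lay alone and carries the name of family MOR274. The long stretch held 25 members, Olfr722 to Olfr749, with the families MOR241 (Olfr722, Olfr732, Olfr733), MOR246 (Olfr725 to Olfr729 and Olfr731), MOR247 (Olfr730), MOR242 (Olfr734), MOR243 (Olfr735) and, at its far end, MOR106 with 13 members (Olfr736 and Olfr738 to Olfr749). Olfr750 (MOR103) lay alone, and Olfr1512 and Olfr1510 (MOR223) lay beside the trio. The full MOR names of Olfr728 (MOR246-1P), Olfr744 (MOR106-13P) and Olfr748 (MOR106-9P) have a pseudogene-type ending, although their symbols do not.

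Several neighbouring members resemble each other in the DNA before their annotated starts. RefSeq windows on GRCm38.p6 were at hand for 24 of the 29 members (not for Olfr727, Olfr728, Olfr735, Olfr741 and Olfr1512). Many OR gene models cover little more than the coding exon, so these windows are the bases before an annotated start, which need not be the promoter. The 60 bases before the start are shown for 5 MOR106 genes because they make up the most alike sets and because their changes in the knockout had different sizes. All are on the plus strand, at chr14:50424461-50424520 for Olfr739, chr14:50452994-50453053 for Olfr740, chr14:50533354-50533413 for Olfr743, chr14:50653179-50653238 for Olfr746 and chr14:50710272-50710331 for Olfr748. Capitals mark bases that differ from Olfr740 in Olfr739 and Olfr743, and from Olfr746 in Olfr748, of which there were 0.
Olfr740: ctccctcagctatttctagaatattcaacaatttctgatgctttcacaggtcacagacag
Olfr739: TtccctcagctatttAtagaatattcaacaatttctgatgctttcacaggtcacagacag
Olfr743: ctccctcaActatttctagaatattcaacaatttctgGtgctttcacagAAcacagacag
Olfr746: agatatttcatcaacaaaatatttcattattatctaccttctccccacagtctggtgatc
Olfr748: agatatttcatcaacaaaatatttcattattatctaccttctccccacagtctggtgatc
Olfr739 differed from Olfr740 at 2 and Olfr743 at 4 of these 60 positions, compared without gaps. Over the whole window of 250 bases before the start, Olfr746 and Olfr748 had the same base at 239 positions. On the same count without gaps, Olfr740 matched Olfr743 at 142 positions and Olfr739 at only 115. Likeness before the start does not show that probes are shared. Whether these genes share probes was not checked here, so their single values carry that uncertainty.

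Homeodomain letters were sought in windows of 250 bases before and 50 after the start, on both strands. TAATTA, which is its own reverse complement, was in 6 of 24 member windows (25%), in 170 of 920 windows of other ORs (18.5%) and in 1738 of 32851 windows of all genes (5.29%). TAATGA, or TCATTA on the other strand, was in 9 member windows (37.5%), in 263 of other ORs (28.6%) and in 3212 of all genes (9.78%). These 2 motifs share the letters TAAT and can overlap. At least 1 of them was in 14 of the 24 member windows (58.3%), 40.4% of other OR windows and 13.9% of all windows. Member windows are not independent, since those of Olfr746 and Olfr748, alike at 239 of 250 bases, both count through a TCATTA. CCCNNGGG, the letters of sites of early B-cell factors, was in 0 of 24 member windows, in 29 windows of other ORs (3.15%) and in 13.7% of all windows. A match is a description of the letters only.

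The windows of Olfr722, Olfr725 and Olfr749 are shown because these are the 3 longest gene models among the members with a window, at 7684, 6148 and 8106 bases, well beyond a coding exon. They are the 250 bases before the start on the minus strand, at chr14:49901942-49902191 for Olfr722, chr14:50035501-50035750 for Olfr725 and chr14:50744325-50744574 for Olfr749. Capitals mark the TCATTA in Olfr749, and Olfr722 and Olfr725 held none of the motifs. The changes of these 3 genes in the knockout are given with their families below.
Olfr722: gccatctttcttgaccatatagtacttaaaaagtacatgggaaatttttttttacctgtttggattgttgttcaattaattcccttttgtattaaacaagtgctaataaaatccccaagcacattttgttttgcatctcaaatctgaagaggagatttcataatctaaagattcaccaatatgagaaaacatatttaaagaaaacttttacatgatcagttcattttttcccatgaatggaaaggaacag
Olfr725: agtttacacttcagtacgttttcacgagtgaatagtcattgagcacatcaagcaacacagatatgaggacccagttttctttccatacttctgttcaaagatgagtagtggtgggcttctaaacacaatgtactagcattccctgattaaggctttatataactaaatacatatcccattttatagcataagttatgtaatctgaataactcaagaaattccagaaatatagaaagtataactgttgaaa
Olfr749: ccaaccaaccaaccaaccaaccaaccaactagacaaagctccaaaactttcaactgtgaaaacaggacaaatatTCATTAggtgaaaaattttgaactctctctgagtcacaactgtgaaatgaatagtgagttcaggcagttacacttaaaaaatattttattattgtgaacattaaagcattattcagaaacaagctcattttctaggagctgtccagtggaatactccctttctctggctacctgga

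Lhx2 mRNA itself was only slightly lower in knockout mucosa. Its values were 12.03, 11.99, 12.17 and 12.16 in knockout mice and 12.39, 12.33, 12.29 and 12.33 in control mice, a log2 change of -0.25 ± 0.06 (SE; adjusted p = 0.0383). The groups did not overlap. Relative to the 16 mature OSN genes described below, Lhx2 was called higher (0.31), as were most named clusters on that scale. The cluster also covers exons that are not floxed, and the tissue holds cells in which Cre is not expressed. Whether either bears on the size of this change was not tested.

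The chromosome 14 ORs were less abundant in the knockout. Of the 29 members, 28 were called lower (96.6%; adjusted p under 0.05 in limma) and 0 higher, with 0 higher at an unadjusted p under 0.05 as well. Over all named clusters 6.29% were called lower and 2.1% higher, and among the 994 other ORs 83% were called lower, so decreases were the rule among ORs in general. The median log2 change of the members was -1.30, or 59.5% lower, with an interquartile range of -1.74 to -0.96. The median was -1.03 (51.1% lower; interquartile range -1.41 to -0.66) over the other ORs and 0.048 over all clusters. On single other chromosomes, OR medians were for example -1.81 on chromosome 16, -1.22 on chromosome 19 and -0.69 on chromosome 4. The shares called lower there were 94.1%, 84.7% and 66.7%. Every knockout lay below every control for 29 of 29 members, against 84.1% of the other ORs and 7.83% of all named clusters.

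**Figure D1:**
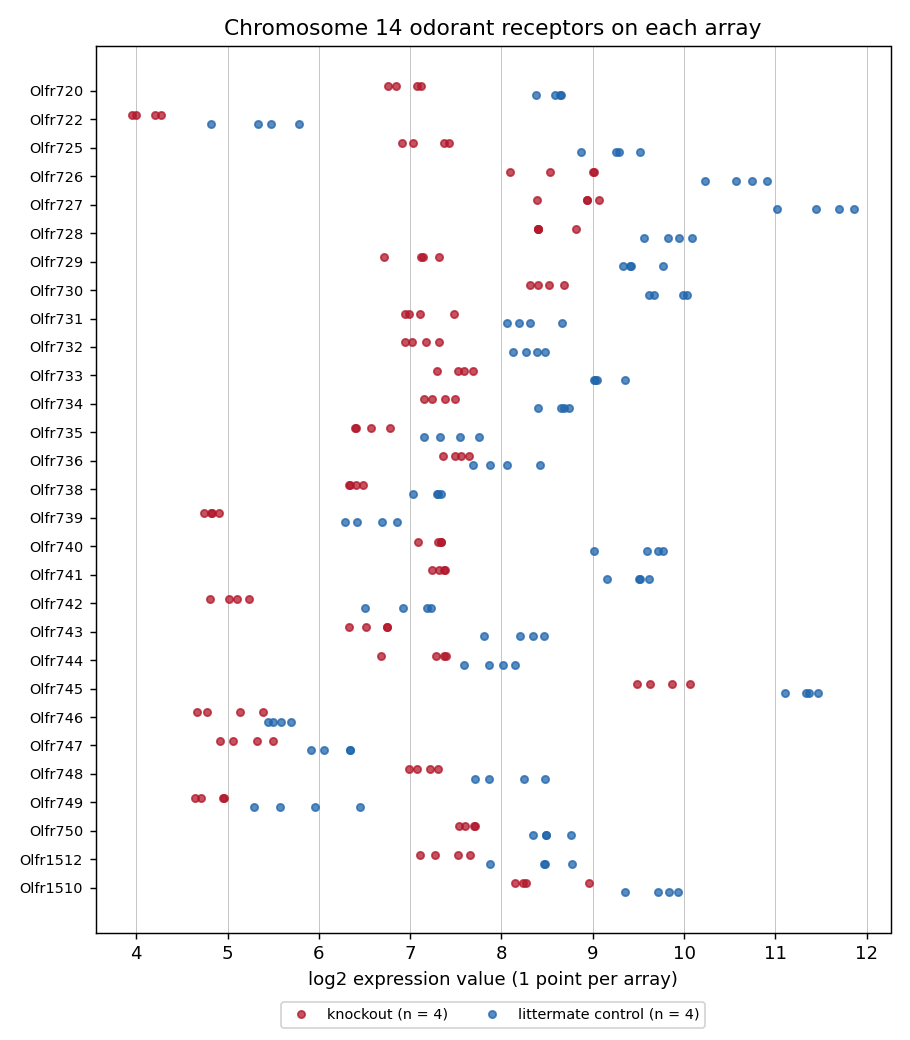
Log2 expression values of the 29 chromosome 14 ORs (rows, in chromosome order), 1 point per array, with 4 knockout arrays in red and 4 littermate control arrays in blue. In each row all knockout points lie left of all control points, with the narrowest separation at Olfr736, Olfr744 and Olfr746. The position of a row cannot be compared between genes. Distances between groups are compared with care, because log2 changes of dim genes may be compressed near the array floor.

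The size of the decrease varied widely within the set. Log2 changes ran between -2.68 and -0.50, which is 6.39-fold to 1.41-fold lower, with standard errors of 0.08 to 0.21. Changes were below -2 for 5 members, between -2 and -1 for 16 and above -1 for 8. Brightness differed too, with control means between 5.35 for Olfr722, which changed by -1.25, and 11.51 for Olfr727, which changed by -2.68. Log2 changes may be compressed near the array floor, so sizes of dim and bright members are not strictly comparable. With dim clusters left out, the median of the 13 members tested was -1.59.

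The 6 largest decreases were in 2 families, MOR246 (Olfr727, Olfr729, Olfr725 and Olfr726) and MOR106 (Olfr740 and Olfr741). Olfr727 gave 9.07, 8.93, 8.93 and 8.39 in knockout mice and 11.69, 11.87, 11.45 and 11.02 in control mice, a change of -2.68 ± 0.19 (adjusted p = 1.03e-05). Olfr729 gave 7.14, 7.31, 7.12 and 6.71 in knockout mice and 9.42, 9.33, 9.77 and 9.41 in control mice, a change of -2.41 ± 0.14 (adjusted p = 3.05e-06). In both genes the highest knockout stayed about 2 log2 units below the lowest control, and knockout replicate 4 was the lowest of its group. Olfr725 gave 7.37, 7.03, 7.43 and 6.91 in knockout mice and 9.29, 9.52, 9.25 and 8.87 in control mice, a change of -2.05 ± 0.15 (adjusted p = 1.26e-05). Olfr726 gave 9.01, 8.53, 9.0 and 8.10 in knockout mice and 10.74, 10.90, 10.57 and 10.23 in control mice, a change of -1.95 ± 0.21 (adjusted p = 0.000161). Replicate 4 was the lowest of each group in both of these genes, and the knockout range of Olfr726 was the wider of the pair.

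Olfr740 gave 7.30, 7.33, 7.34 and 7.08 in knockout mice and 9.71, 9.77, 9.59 and 9.01 in control mice, a change of -2.26 ± 0.15 (adjusted p = 7.68e-06). Olfr741 gave 7.37, 7.31, 7.24 and 7.38 in knockout mice and 9.51, 9.62, 9.52 and 9.15 in control mice, a change of -2.12 ± 0.10 (adjusted p = 1.13e-06), the smallest adjusted p of the 29 members. Knockout values of these neighbours lay within 0.3 log2 units of each other in each gene, and control replicate 4 was the lowest control of both.

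The 4 smallest changes were all in MOR106 genes. Olfr736 was the member that was not called, with 7.49, 7.56, 7.36 and 7.64 in knockout mice and 7.69, 7.87, 8.06 and 8.42 in control mice, a change of -0.50 ± 0.14 (adjusted p = 0.0635). Its highest knockout lay just under its lowest control, control replicate 1, the mouse without Cre. Olfr746 gave 4.78, 5.13, 4.67 and 5.39 in knockout mice and 5.70, 5.44, 5.58 and 5.49 in control mice, a change of -0.56 ± 0.15 (adjusted p = 0.0424). Olfr744 gave 7.37, 7.29, 7.40 and 6.68 in knockout mice and 7.87, 8.02, 7.59 and 8.14 in control mice, a change of -0.72 ± 0.17 (adjusted p = 0.0259). Olfr746 lost its call in 7 of the 8 fits that left out 1 mouse and kept it only without knockout replicate 4 (adjusted p 0.0591 to 0.127 where it was lost). Olfr744 lost its call without control replicate 1, 2 or 4 (adjusted p 0.0622 to 0.0783), and Olfr736 was called without control replicate 1 (adjusted p = 0.0214). Olfr738 gave 6.41, 6.48, 6.33 and 6.34 in knockout mice and 7.29, 7.30, 7.03 and 7.34 in control mice, a change of -0.85 ± 0.08 (adjusted p = 6.23e-05). Its small standard error kept the call of Olfr738 well away from the threshold.

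By family, the 6 MOR246 genes were all called lower, with a median change of -2.0 and a range of -2.68 to -1.18. Olfr728 at -1.35 and Olfr731 at -1.18 were the smaller decreases of that family. The 13 MOR106 genes spread over most of the range of the set, with 12 called lower, a median of -1.0 and values of -2.26 to -0.50. Between the extremes of MOR106 lay Olfr742 at -1.92, Olfr739 at -1.74, Olfr743 at -1.62, Olfr745 at -1.56, Olfr749 at -1.0, Olfr747 at -0.96 and Olfr748 at -0.93. The 3 MOR241 genes were closer together, with Olfr733 at -1.59, Olfr722 at -1.25 and Olfr732 at -1.20. The families with 1 member each gave -1.61 for Olfr720, -1.35 for Olfr730, -1.30 for Olfr734, -0.90 for Olfr735 and -0.89 for Olfr750, all called lower.

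Olfr1510 and Olfr1512 lie beside the H element trio, and both were called lower. Olfr1510 gave 8.23, 8.27, 8.96 and 8.15 in knockout mice and 9.84, 9.93, 9.35 and 9.71 in control mice, a change of -1.30 ± 0.19 (adjusted p = 0.00107). Olfr1512 gave 7.27, 7.66, 7.52 and 7.11 in knockout mice and 8.48, 8.77, 7.87 and 8.47 in control mice, a change of -1.01 ± 0.19 (adjusted p = 0.00581). Knockout replicate 3 was the highest knockout of Olfr1510 and control replicate 3 the lowest control of both genes. The cluster shared by Olfr1512 and Olfr1513 changed by -1.67 (adjusted p = 0.000319 in limma). The cluster shared by Olfr1510 and Olfr1511 changed by -0.93 (adjusted p = 0.00582). Which of Olfr1510 and Olfr1512 changed more therefore depends on the cluster taken. The trio changed by -2.28 ± 0.13 (Olfr1507), -2.16 ± 0.12 (Olfr1508) and -1.93 ± 0.12 (Olfr1509), all called lower; the difference between the pair and the trio was not tested. The other chromosome 14 ORs outside both sets were Olfr31 (-1.01; adjusted p = 0.00168), Olfr221 (-0.96; adjusted p = 7.67e-05) and Olfr49 (-0.56; adjusted p = 0.379).

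**Figure D2:**
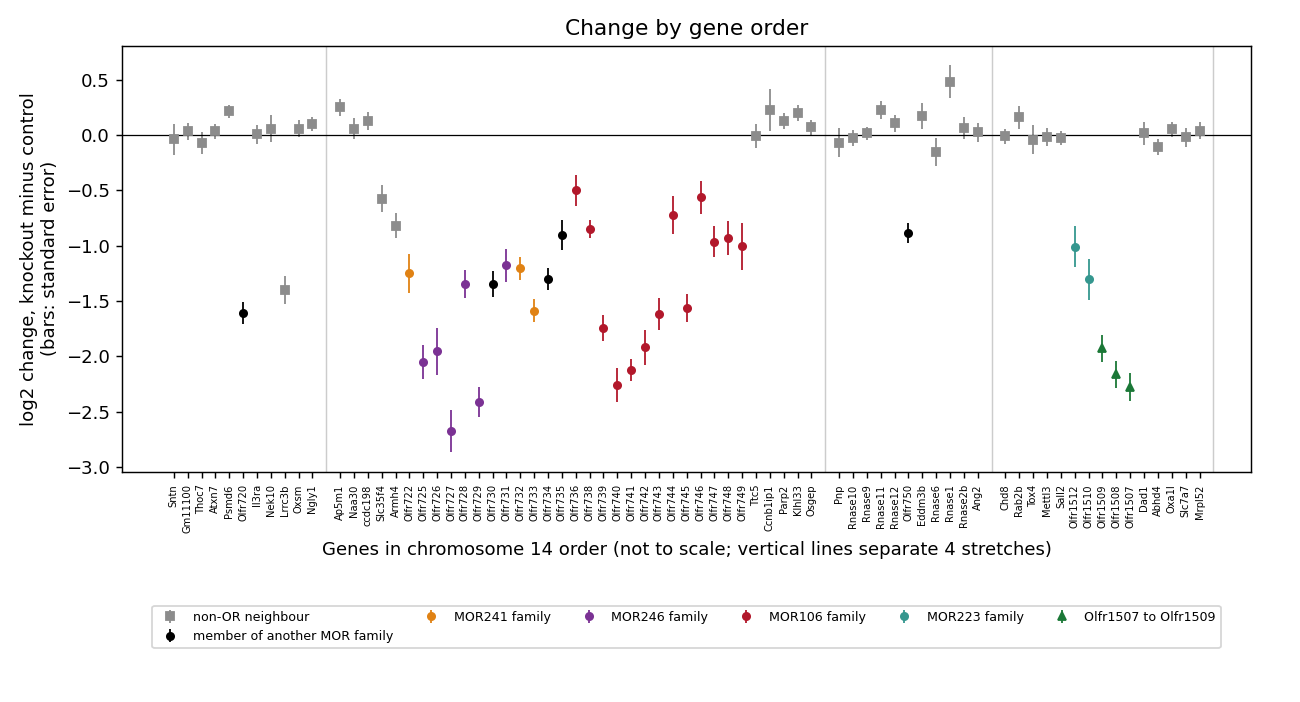
Log2 change (knockout minus control, n = 4 each; bars are standard errors) of the members, the trio and the 40 nearest measured genes that are not ORs, in chromosome order in 4 stretches and not to scale. Circles are members coloured by MOR family, triangles the trio and squares the other genes. The members lie between -2.68 and -0.50, while 37 of the 40 squares were not called.

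Along the long stretch the change moved up and down between neighbours. Its 25 members had a median of -1.35. Steps between adjacent members were largest between Olfr727 and Olfr728 (difference of the 2 changes -1.33), between Olfr729 and Olfr730 (-1.07), between Olfr728 and Olfr729 (1.07) and between Olfr745 and Olfr746 (-1.0). The run Olfr739 to Olfr743 lay between -2.26 and -1.62, with Olfr738 at -0.85 on one side and Olfr744 at -0.72 on the other. Differences between adjacent members were compared in 25 pairs, a choice made after the values were seen. The pair Olfr1512 and Olfr1510 lay outside the long stretch. The test was an exact permutation test (two-sided, 70 ways to split 8 arrays into 4 and 4). The smallest p this design allows is 0.0286, which 10 pairs reached. After Benjamini-Hochberg adjustment over the 25 pairs it was 0.0714, so 0 pairs passed. No pair could pass unless more pairs reached that smallest p, so the test cannot decide whether single pairs differ. Olfr739 and Olfr740, which differed at 2 of the 60 bases before their starts, changed by -1.74 and -2.26, and Olfr746 and Olfr748, which differed at 0, by -0.56 and -0.93.

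Genes around the stretches that are not ORs mostly stayed near 0. Of the 40 nearest measured protein-coding genes, 5 on each side of each stretch, 3 were called lower and 0 higher in limma, with 5 higher at an unadjusted p under 0.05 and a median change of 0.034. The 3 are 7.5% of the 40, near the 6.29% called lower over all named clusters. Lrrc3b, which codes for a leucine-rich repeat protein and lies 3 measured genes beyond Olfr720, gave 8.81, 9.10, 9.08 and 8.97 in knockout mice and 10.79, 10.22, 10.21 and 10.34 in control mice, a change of -1.40 ± 0.13 (adjusted p = 5.42e-05). Armh4 and Slc35f4, the 2 genes next to Olfr722, changed by -0.82 ± 0.12 (adjusted p = 0.00101) and -0.57 ± 0.12 (adjusted p = 0.0138). In these 3 genes (7.5%, beside 7.83% of all named clusters) every knockout lay under every control. None of the 20 genes around Olfr750 and around the stretch of Olfr1510, Olfr1512 and the trio was called in limma, with 2 at an unadjusted p under 0.05 and higher in the knockout.

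Markers of mature OSNs moved with the members. Of 16 mature OSN genes (Omp left out, because its locus carries Cre), 14 were called lower and 0 higher, with a mean change of -0.56 and a median of -0.46, and their mean per array was 11.75 to 11.80 in knockout mice and 12.32 to 12.35 in control mice. Among the called genes with the smallest p, Cnga4 and Cnga2, which both form part of the cyclic nucleotide-gated channel of OSN cilia, changed by -2.02 ± 0.12 and -0.49 ± 0.05, the G protein subunit gene Gng13 by -1.0 ± 0.11 and Ric8b, which codes for a partner of the olfactory G protein, by -0.53 ± 0.06. Cnga4 had the largest change of the 16, and the 2 genes not called were Pde4a (-0.071) and S100a5 (0.080). Omp changed by -0.84 ± 0.15 (adjusted p = 0.00568). In bulk tissue, fewer cells of a type and less RNA per cell cannot be told apart. Of 8 immature OSN genes, 4 sustentacular cell genes, 5 macrophage genes and 1 red blood cell gene, 0 were called in either direction, and of 4 genes of respiratory epithelium and glands Foxj1 was called, at -0.42. Of 12 genes linked to OR gene choice, such as EBF factors and Ldb1, 2 were called lower (Atf5 at -0.43 and Ebf3 at -0.22) and 0 higher. The part of the mature OSN markers' decrease in the changes of the members was not tested.

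When each array was centred on its mean over the 16 mature OSN genes, 25 of 29 members were called lower and 0 higher, with a median change of -0.75 (40.4% lower). On that scale 3.47% of all named clusters and 61.2% of the 994 other ORs were called lower, and 92.9% of all named clusters, 8.85% of other ORs and 37 of the 40 neighbours were called higher. The median over other ORs was -0.48 and that over all clusters was 0.60. The study rescaled to a longer list of mature OSN mRNAs, whose reported decrease in these mice was smaller than the mean of -0.56 of these 16 genes. Centring on the 16 genes is therefore the larger correction. The members not called were Olfr736 (0.061; adjusted p = 0.667), Olfr746 (-0.0064; adjusted p = 0.966), Olfr744 (-0.17; adjusted p = 0.368) and Olfr749 (-0.45; adjusted p = 0.0695), all of MOR106. With Cnga4 left out of the list, a choice made after the values were seen, 26 members were called lower and 0 higher, the median was -0.85, Olfr736 was at -0.037 (adjusted p = 0.797) and Olfr749 was called (-0.55; adjusted p = 0.0336). At the other end Olfr727 still changed by -2.12 and Olfr729 by -1.86. Olfr1510 changed by -0.75 and Olfr1512 by -0.45 (adjusted p = 0.0417) relative to the markers. Lrrc3b was -0.84 relative to them, Armh4 -0.26 (adjusted p = 0.0543) and Slc35f4 -0.017 (adjusted p = 0.895). Lhx2 was 0.31 on that scale (limma, adjusted p = 0.00147), where most named clusters were called higher.

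**Figure D3:**
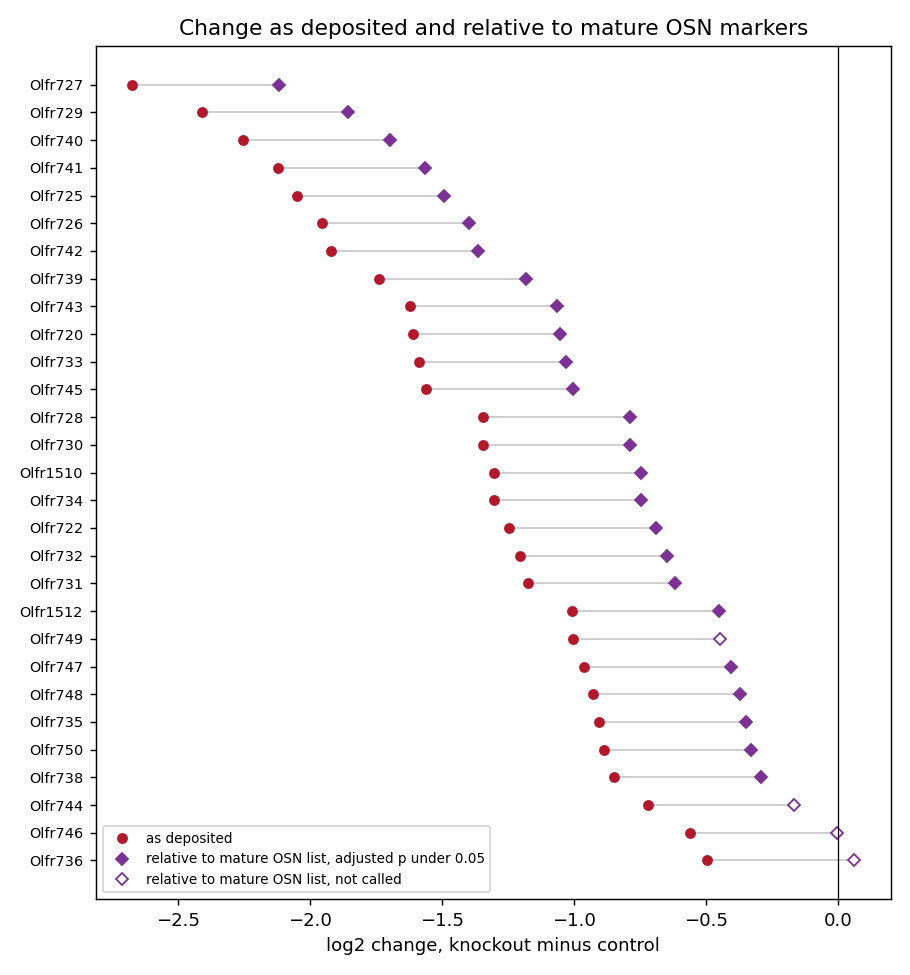
Log2 change (knockout minus control) of each member as deposited (red circles) and after centring each array on 16 mature OSN markers (purple diamonds, open where not called). Members are ordered by their change. Centring moves every member by the same amount, and Olfr749, Olfr744, Olfr746 and Olfr736 lose or lack a call.

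The decrease was present in each title series. All 29 members were lower in the knockouts within series 5, within series 7 and within series 9, with medians of -1.38, -1.31 and -1.40. The same held for 90.2% of the other ORs and 15.2% of all named clusters. The series did not agree equally for every gene. For Olfr1510 the difference was -1.63 in series 5, -0.39 in series 7 and -1.56 in series 9, and for Olfr1512 it was -1.16, -0.35 and -1.36 in the same order of series. Olfr744 gave -0.61, -0.19 and -1.47, and Olfr746 gave -0.62, -0.91 and -0.10. By contrast Olfr727 gave -2.78, -2.52 and -2.63, and Olfr732 gave -1.23, -1.16 and -1.19. Series 7 and 9 hold 1 mouse per group, so these are values without a test.

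**Figure D4:**
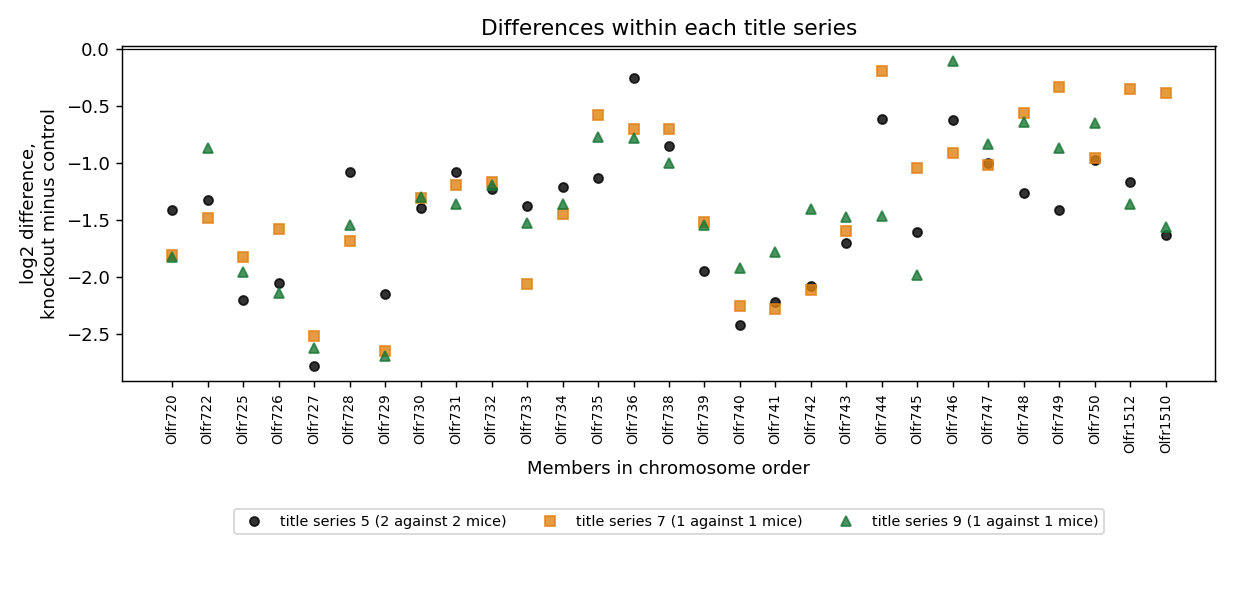
Log2 difference, knockout minus control, of each member (in chromosome order) within title series 5 (circles, 2 against 2 mice), 7 (squares, 1 against 1) and 9 (triangles, 1 against 1). All points lie below 0. The series lie close together at Olfr727, Olfr730 and Olfr732 and far apart at Olfr744, Olfr1510 and Olfr1512.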

How the data were processed

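The authors deposited log2 values, 1 per transcript cluster and array, made with Affymetrix Expression Console from Mouse Gene 1.0 ST arrays. Equal amounts of total RNA were used, and each value combines a gene's exon probe sets. No source used here gives the version, background correction or normalization. The values ran between 2.35 and 14.6 and were used as deposited. Arrays give no counts, so their number limits the precision.

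Symbols came from the platform annotation, updated by Entrez ID (21698 of 21789 single-symbol clusters matched) with RefSeq for GRCm38.p6, which also gave gene order, MOR names and DNA windows. Of 35557 clusters, 23410 had at least 1 symbol and were tested with limma 3.58.1 (lmFit, eBayes; R 4.3.3), without covariates. Adjusted p-values are Benjamini-Hochberg over the 23410 clusters, and a cluster was called at an adjusted p under 0.05. The script was tested on simulated data. Alternatives were array median centring, quantile normalization, centring on mature OSN markers, title series as a block, array weights and a t-test. Others were all clusters, brighter clusters, leaving out each mouse and, added after values were seen, centring without Cnga4. The study's t tests followed a rescaling to a list of mature OSN mRNAs, which was not at hand here. The t-test here used the values as deposited. Each array is 1 mouse.

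The members and lists were chosen with earlier results of these data known. All members are named. Values on every array are given for Olfr1510 and Olfr1512, the 6 largest called decreases, the 4 smallest changes and every member not called. Other genes named are Lhx2, Omp, the trio, the neighbours and called marker genes. A grouping by protein identity was planned, and MOR names stand in for it because protein sequences were not used here. Comparisons of adjacent members and of the bases before starts were added after values were seen. Figures were drawn with matplotlib 3.10.9.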

Additional observations from a re-analysis of the deposited data

Results flagged for a closer look

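In each of the 58 groups of 4 arrays (29 members in 2 groups) the gap between the most distant array and its nearest neighbour was divided by the range of the group. The share exceeded the critical value of Dixon's test for 4 values in 6 of them, and chance alone exceeds it in about 1 of 20 groups. In knockout mice these were Olfr728, where knockout replicate 1 was high (0.983), Olfr1510, where knockout replicate 3 was high (0.846), and Olfr740 (0.852) and Olfr744 (0.845), where knockout replicate 4 was low. In control mice they were Olfr733, where control replicate 3 was high (0.901), and Olfr738, where control replicate 3 was low (0.840).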

How the results depend on the processing

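The number of members called lower, 28 of 29, was 29 with array median centring, 28 with quantile normalization, 29 with the title series as a block, 28 with array weights, 26 over all clusters, 24 by the methods' t-test (26 at p under 0.01, of which 18 also had a false discovery rate under 0.01) and 25 relative to the mature OSN list (26 with Cnga4 left out of it), and it was 26 to 28 when 1 mouse was left out. It was 13 of the 13 members tested with dimmer clusters left out, where the median was -1.59 and its difference from other ORs -0.39, and fewer members were tested there. No setting called a member higher, so that count was 0 throughout, and 24 members were called in every setting in which they were tested. The median change of -1.30 was -0.75 relative to the mature OSN list, -0.85 with Cnga4 left out of it and -1.31 to -1.28 with a mouse left out. The difference from other ORs, -0.27, was -0.30 to -0.22 with a mouse left out. Olfr736 changed sign relative to the mature OSN list (0.061). Its call was gained with median centring (adjusted p = 0.0476) and with the series block (adjusted p = 0.0205). The 3 neighbours called, all lower, compare with 38 called relative to the mature OSN list, 37 of them higher and 1, Lrrc3b, lower (the median of all clusters is 0.60 on that scale). The count was 39 with Cnga4 left out of the list, 5 with the series block, 6 with array weights and 3 to 5 with a mouse left out, 5 without control replicate 4. The causes of these differences were not tested beyond what each setting changes. Of 477 other values of single members, 452 kept their direction and their side of the threshold. Replicate numbers only follow the order of the records and pair no mice, so the title series was the block that could be fitted. Over the 25 adjacent pairs, 10 reached the smallest p of the exact test and 0 passed after adjustment. With 10 pairs at that smallest p none could pass, so this count does not decide whether single pairs differ.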
